A study of Mus musculus with 5 samples.

Results

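Il17a, Il17f, Il22, Il23r, Il17re, Il17rc, Tmem176a and Tmem176b, genes of the type 17 immune programme, were followed in T cells from the colon lamina propria of mice, the tissue that lies under the gut epithelium. They were taken by gene symbol and made up 8 of the 24417 named genes of the table. RNA was sequenced from 5 libraries, all of mice with a Foxp3 DTR-GFP allele and a Foxp3 loxp-Thy1.1-STOP-loxp-GFP allele, so that both groups carried both alleles. The Treg group (2 libraries) held cells positive for the reporter of the DTR-GFP allele, in which a diphtheria toxin receptor fused to a green fluorescent protein marks cells that use a working Foxp3 gene. The reporter-null group (3 libraries) held cells positive for Thy1.1, the mark of the other allele, in which a stop signal between loxP sites precedes GFP. No treatment, time or age enters the comparison. The comparison asked how the cells that switched on the stopped allele differed from Treg cells of the same tissue, and the labels do not say whether libraries of a group came from separate animals, so p-values measure the spread between these libraries only. The description of reporter-null replicate 1 joins 2 sample numbers.

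IL-17A and IL-17F are related cytokines that act alone or as a joined pair on epithelial and stromal cells, where they call in neutrophils and raise antimicrobial proteins. IL-22, a cytokine of the IL-10 family often made by the same cells, acts on epithelium, and IL-23 sustains all of these cytokines through the receptor chain encoded by Il23r. In the colon such cytokines come from Th17 cells, gamma-delta T cells and group 3 innate lymphoid cells, and Treg cells, which Foxp3 defines, restrain them.

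The 250 bases before the start of the 3 cytokine genes are printed because these genes had the widest gaps between the groups, and they are the members that hold the letters TATAAA of the TATA box, a core promoter element, which are in capitals. Sequences are from RefSeq with the build GRCm38.p6, each 5′ to 3′ on the strand of its gene, namely Il17a at chr1:20730655-20730904 on the plus strand, Il17f at chr1:20784271-20784520 on the minus strand and Il22 at chr10:118204714-118204963 on the plus strand.
Il17a: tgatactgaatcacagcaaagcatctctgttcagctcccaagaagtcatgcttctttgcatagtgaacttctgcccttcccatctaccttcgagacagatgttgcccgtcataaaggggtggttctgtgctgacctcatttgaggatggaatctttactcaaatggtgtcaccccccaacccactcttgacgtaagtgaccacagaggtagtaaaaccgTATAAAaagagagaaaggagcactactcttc
Il17f: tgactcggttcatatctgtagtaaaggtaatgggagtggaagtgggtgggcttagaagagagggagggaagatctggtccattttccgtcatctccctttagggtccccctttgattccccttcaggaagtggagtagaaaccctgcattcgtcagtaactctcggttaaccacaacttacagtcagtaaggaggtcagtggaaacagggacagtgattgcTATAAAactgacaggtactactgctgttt
Il22: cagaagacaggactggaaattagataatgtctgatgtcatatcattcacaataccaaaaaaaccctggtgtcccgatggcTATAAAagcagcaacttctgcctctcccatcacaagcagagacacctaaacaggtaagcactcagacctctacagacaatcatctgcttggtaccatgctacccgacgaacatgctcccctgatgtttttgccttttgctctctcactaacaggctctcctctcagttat
Each window that was searched ran from 250 bases before to 50 bases after the start, on both strands, and all 8 genes had at least 1. The letters TATAAA were found for 3 of the 8 genes, and in 13.6% of 32841 mouse promoter windows of the same length. Their first base lay at -31 from the start in Il17a, at -29 in Il17f and at -170 in Il22. The Runx letters TGTGGT (16.8% of windows) were found in Il17a and Il17f, the AP-1 letters TGANTCA (7.81%) in Il17a, and the STAT letters TTCNNNGAA (8.30%) in 0 of the 8 genes. The matches did not overlap one another, and a match describes the letters only.

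Library totals ran from 17670420 to 22395169 counts, and 14164 genes passed a filter on low counts. Levels are CPM values, read counts scaled to the size of the library, after TMM scaling. A gene is called higher or lower where its p in the edgeR quasi-likelihood test, adjusted by Benjamini-Hochberg over all tested genes, was under 0.05. Changes and list medians are on the log2 scale, reporter-null minus Treg. Foxp3, the targeted gene, stood at 764 and 770.0 CPM in the Treg libraries and at 75.7, 80.7 and 81.3 CPM in the reporter-null libraries, and Thy1 at 18.8 and 21.4 against 269.9, 269.3 and 300.5 CPM. Both matched the labels, although a read outside the stopped part of Foxp3 does not test the stop. Counts are per gene symbol, so the Thy1 count does not separate the Thy1.1 mark from the cells' own Thy1. Of 10 T cell genes 7 had a value, all of them above 1 CPM in every library, and 1 of the 7 was higher (Cd4, log2 fold change 0.99, SE 0.141, adjusted p = 0.00796) and 0 lower. That call was lost without Treg replicate 1 (adjusted p = 0.110) or 2 (0.0827). Treg replicate 1 and reporter-null replicate 2 stood apart in markers of colon epithelium, whose 12 genes summed to 348 and 1546 CPM there and to 40.8 to 53.0 CPM in the other 3 libraries.

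Of the 8 genes 6 were higher in reporter-null cells and 0 were lower. Il17f and Il17a moved most, by log2 fold changes of 7.51 and 5.86, and Il17re, Tmem176a, Tmem176b and Il23r by 1.94 to 2.60. Il22 and Il17rc did not pass the test. These 6 genes are 75% of the members, while 4.07% of all tested genes were called higher and 4.72% lower. In 7 of the 8 genes every reporter-null library lay above every Treg library, which held for 20.3% of tested genes. The median log2 fold change was 2.35 over the 8 genes and 0.018 over all tested genes. The 8 genes were chosen with earlier results of these data known, so these shares and medians describe them and test nothing. In such bulk libraries, more cells that use a gene and more RNA per cell cannot be told apart.

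**Figure D1:**
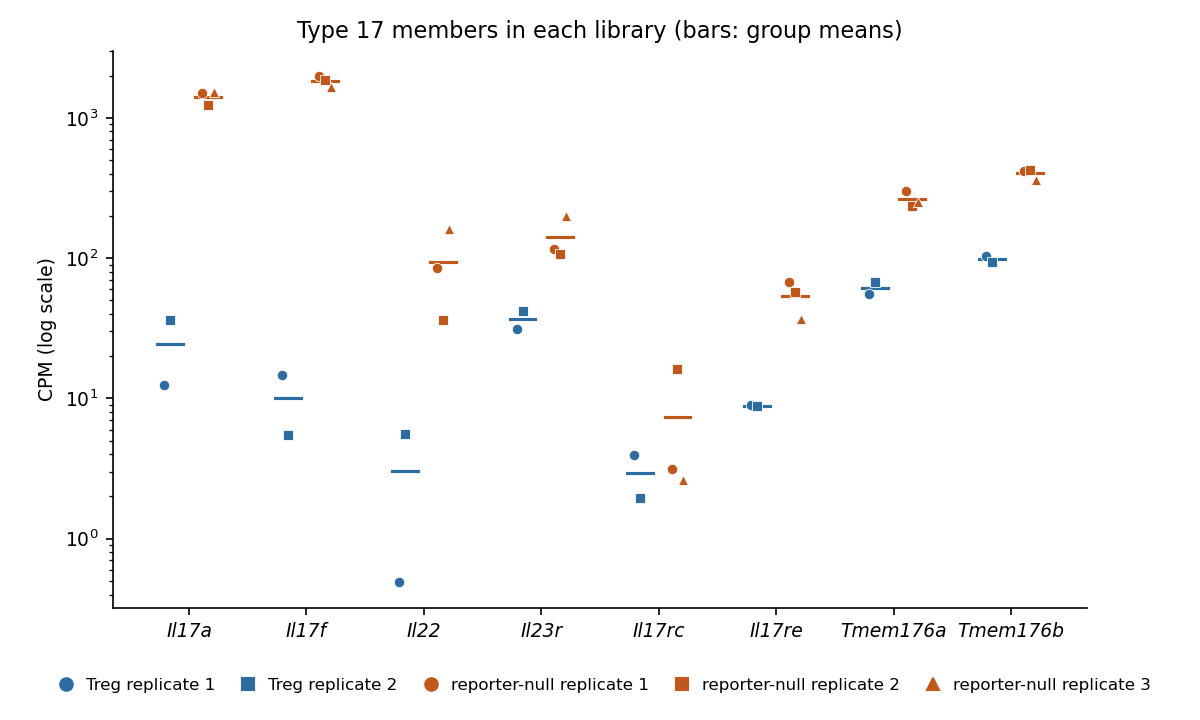
Level of each gene in each library, in CPM on a log axis, with Treg libraries in blue, reporter-null libraries in orange, a point for each library and a bar for each group mean. Il17a and Il17f lie at or above 1229 CPM in every reporter-null library and at or below 36.3 CPM in both Treg libraries, while the groups overlap for Il17rc.

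Among the cytokines, Il17a stood at 12.4 and 36.3 CPM in Treg replicates 1 and 2 and at 1495, 1229 and 1527 CPM in reporter-null replicates 1 to 3. The groups were far apart, the lowest reporter-null library being 33.9 times the highest Treg library. The mean was 24.3 ± 16.8 CPM (SD, n = 2) in Treg and 1417 ± 164 CPM (SD, n = 3) in reporter-null cells, a fold change of 5.86 on the log2 scale (SE 0.592, adjusted p = 0.00762). Without Treg replicate 2, the higher of the Treg libraries, it was 6.84 (adjusted p = 0.00361). The Treg values rest on 229 and 784 counts.

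Il17f, which encodes the partner of IL-17A in the joined cytokine, stood at 14.7 and 5.46 CPM in Treg and at 1983, 1850 and 1650 CPM in reporter-null cells. The gap was wider than for Il17a, with the lowest reporter-null library 112 times the highest Treg library. Group means were 10.1 ± 6.55 CPM (SD, n = 2) and 1828 ± 168 CPM (SD, n = 3), a fold change of 7.51 on the log2 scale (SE 0.550, adjusted p = 0.0022). Without Treg replicate 1 it was 8.39 (adjusted p = 0.00291). By size of increase Il17f ranked 9 and Il17a ranked 27 among all tested genes.

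The Treg libraries differed in the ratio of these cytokine genes. Per kilobase of exon Il17a lay above Il17f in both of them. The values were 10.6 and 7.28 CPM in Treg replicate 1, and 31.0 and 2.70 CPM in Treg replicate 2. The log2 ratio of the Il17f to the Il17a CPM was 0.24 in Treg replicate 1 and -2.71 in Treg replicate 2, against 0.41, 0.59 and 0.11 in reporter-null replicates 1 to 3. The 3 reporter-null libraries were close together, and Treg replicate 1 lay among them. The group means differed by 1.605 (two-sided exact permutation p = 0.2, where 0.1 is the smallest that 2 against 3 libraries allow), and by 0.13 without Treg replicate 2 and 3.08 without Treg replicate 1.

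Il22 stood at 0.489 and 5.59 CPM in Treg and at 84.3, 36.4 and 161.5 CPM in reporter-null cells. All 3 reporter-null libraries lay above both Treg libraries, the lowest by 6.50 times, but libraries of 1 group differed widely, 11.4-fold within Treg and 4.44-fold within reporter-null cells. The means were 3.04 ± 3.61 CPM (SD, n = 2) and 94.1 ± 63.1 CPM (SD, n = 3), and the log2 fold change of 4.92 (SE 1.37, adjusted p = 0.152) did not pass the test. It ranged from 4.07 without Treg replicate 1 to 7.58 without Treg replicate 2, and came to 4.29 when reporter-null replicate 3 was left out. Without robust estimation of the spread its adjusted p was 0.0473 and with DESeq2 0.00107. With a block on the replicate numbers of the titles it was 0.386. Il22 was called in 4 of 16 alternatives, of which 1 was chosen after seeing the data and left 1 Treg library. Counts in Treg were 9 and 121.

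Iltifb, a near copy of Il22 that lies beside it in the mouse genome, took 0 and 12 counts in Treg and 210, 95 and 435 counts in reporter-null cells. This was 9.92% to 13.5% of the Il22 count in the 4 libraries where it was not 0. Reads may be split between such copies, so the level of each gene is uncertain. With the counts of both genes summed, a choice made after seeing the data, the log2 fold change was 4.96 (adjusted p = 0.154).

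Among the receptors, Il23r, the chain that makes a T cell responsive to IL-23, stood at 31.4 and 42.0 CPM in Treg and at 115, 107 and 199.9 CPM in reporter-null cells. The groups did not overlap, and reporter-null replicate 3 was the highest library. The means were 36.7 ± 7.46 CPM (SD, n = 2) and 141 ± 51.5 CPM (SD, n = 3), a fold change of 1.94 on the log2 scale (SE 0.341, adjusted p = 0.0288). Its call was lost without Treg replicate 1 (adjusted p = 0.205), Treg replicate 2 (0.127) or reporter-null replicate 1 (0.0642).

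Il17re, the receptor chain for IL-17C, stood at 8.96 and 8.83 CPM in Treg and at 67.8, 57.2 and 37.1 CPM in reporter-null cells. The Treg libraries were nearly alike and the reporter-null libraries all higher. The means were 8.89 ± 0.0898 CPM (SD, n = 2) and 54.0 ± 15.6 CPM (SD, n = 3), a fold change of 2.60 on the log2 scale (SE 0.280, adjusted p = 0.00321). The call was lost without Treg replicate 1 (adjusted p = 0.0672) or Treg replicate 2 (0.0604), where 1 Treg library is left.

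Il17rc, the chain that pairs with the common chain Il17ra to bind IL-17A and IL-17F, stood at 3.96 and 1.94 CPM in Treg and at 3.14, 16.3 and 2.63 CPM in reporter-null cells. Only reporter-null replicate 2 was high, and the groups overlapped. The log2 fold change was 1.32 (SE 0.967, adjusted p = 0.515), and -0.0445 (adjusted p = 0.973) without reporter-null replicate 2. That library also held the most epithelial signal, with Krt8, a keratin of simple epithelium, at 426 CPM there, at 86.1 CPM in Treg replicate 1 and at 1.29 to 2.76 CPM in the other 3 libraries. The part of epithelial RNA in the Il17rc value was not tested. Il17re did not share the pattern, since it was lower in reporter-null replicate 2 than in replicate 1. The log2 ratio of Il17re to Il17rc was 1.15 and 2.13 in Treg and 4.38, 1.81 and 3.77 in reporter-null cells (two-sided exact permutation p = 0.3).

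**Figure D2:**
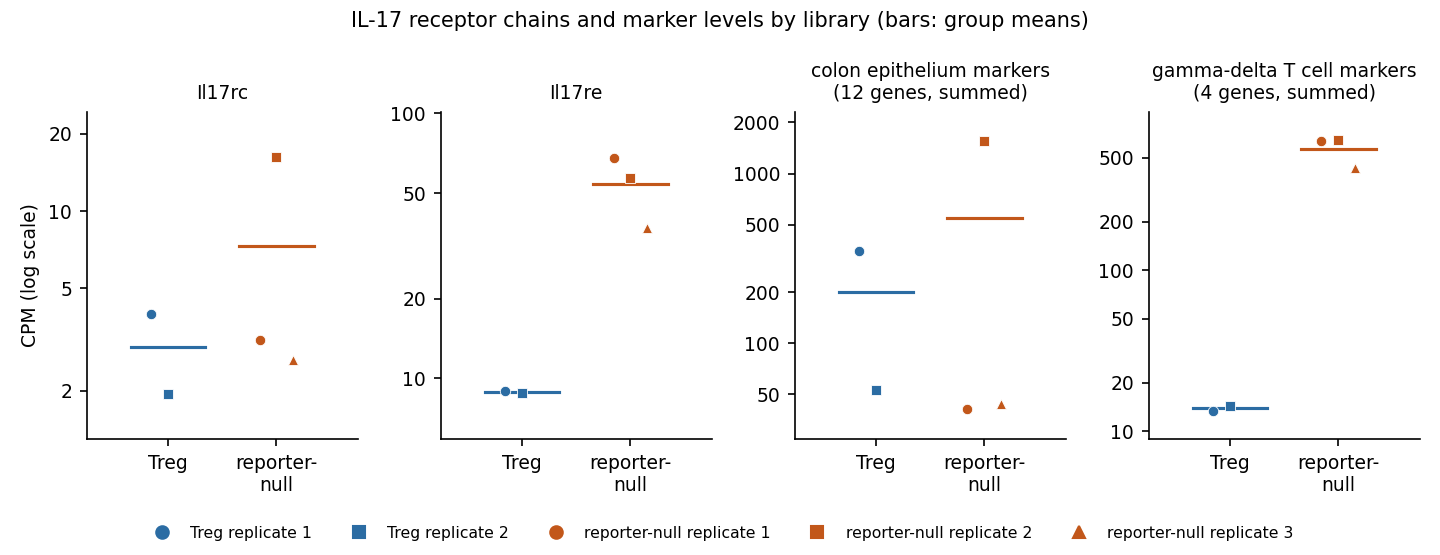
Levels of Il17rc and Il17re and the summed levels of colon epithelium and gamma-delta T cell markers in each library, in CPM on log axes, with a point for each library and a bar for each group mean. Reporter-null replicate 2 is highest for Il17rc (16.3 CPM) and for the epithelial markers (1546 CPM). Il17re and the sum of the gamma-delta markers are higher in all reporter-null libraries.

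The Tmem176 genes encode membrane proteins with 4 spans, related to the MS4A family and abundant in Th17 cells and myeloid cells. Tmem176a stood at 55.7 and 67.7 CPM in Treg and at 301.7, 236 and 252 CPM in reporter-null cells. Tmem176b stood at 103 and 93.5 CPM in Treg and at 418, 428 and 362 CPM in reporter-null cells. Neither gene overlapped between the groups, and replicates lay close together.

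Tmem176a rose by a fold change of 2.09 on the log2 scale (SE 0.165, adjusted p = 0.000991), from 61.7 ± 8.51 CPM (SD, n = 2) to 264 ± 34.0 CPM (SD, n = 3). Tmem176b rose by 2.03 (SE 0.134, adjusted p = 0.000626), from 98.3 ± 6.69 CPM (SD, n = 2) to 402 ± 35.7 CPM (SD, n = 3). Both kept their call with any 1 library left out. The log2 ratio of Tmem176a to Tmem176b was -0.89 and -0.47 in Treg and -0.47, -0.86 and -0.52 in reporter-null cells, a difference of 0.06 (two-sided exact permutation p = 0.8). The genes lie head to head on opposite strands and share 81 exon bases in the GENCODE annotation. The sources used here do not say how strand was counted, so reads from the shared bases cannot be told apart. Myeloid cells also use the Tmem176 genes, and their markers summed to 58.4 and 22.38 CPM in Treg and 31.6, 119 and 33.2 CPM in reporter-null cells. Of these markers 13 were tested and 0 were called. The dendritic cell marker Clec9a was at 0 in every library. Another, Xcr1, lay higher in all reporter-null libraries, at 2.33 and 0.509 CPM in Treg against 5.25, 6.53 and 6.72 CPM (adjusted p = 0.108). Cd68 and Itgax lay lower in all reporter-null libraries. Cd68 stood at 8.80 and 3.84 CPM in Treg against 1.35, 2.78 and 3.11 CPM (adjusted p = 0.179). Itgax stood at 0.597 and 0.879 CPM in Treg against 0.271, 0.336 and 0.0890 CPM (adjusted p = 0.337). The other tested myeloid markers overlapped between the groups. The part of myeloid cells in the Tmem176 values was not tested.

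**Figure D3:**
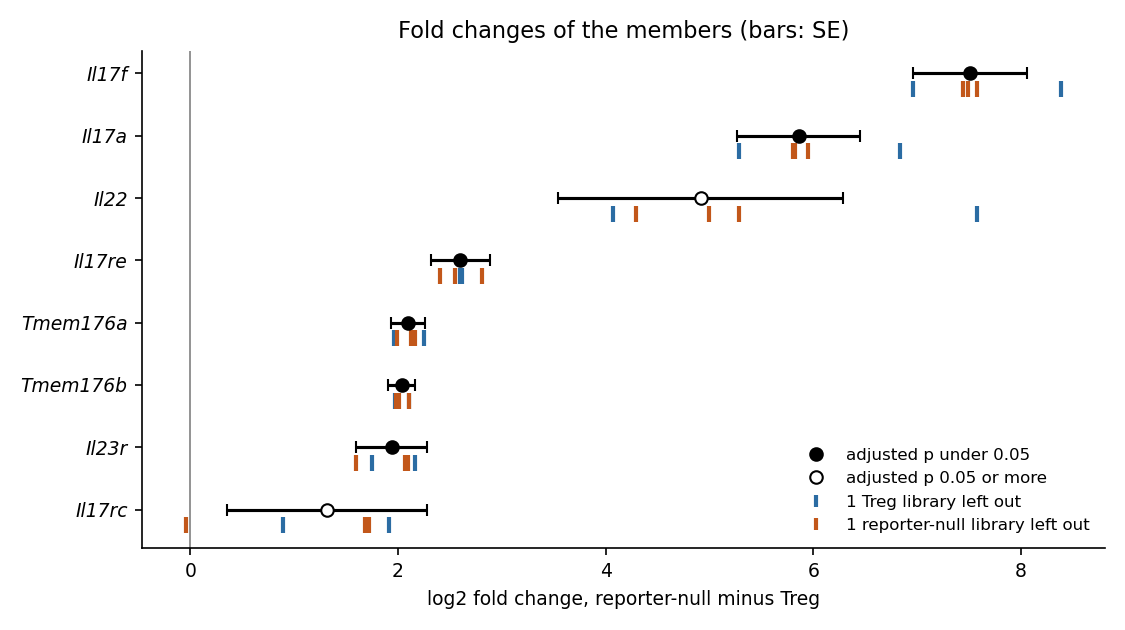
Log2 fold change of each gene, reporter-null minus Treg, with its SE (black, filled where the adjusted p is under 0.05) and the values with each library left out in turn (ticks, blue for a Treg and orange for a reporter-null library). Il17f reaches from 6.96 to 8.39 and Il22 from 4.07 to 7.58 over these fits, while Tmem176a and Tmem176b stay near 2.

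Spread between reporter-null libraries separated the genes. The coefficient of variation over the 3 libraries was 8.87% for Tmem176b, 9.18% for Il17f, 11.5% for Il17a and 12.9% for Tmem176a, all below the median of 14.97% over tested genes. It was 28.9% for Il17re, 36.6% for Il23r, 67.1% for Il22 and 105% for Il17rc.

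Levels of different genes were compared per kilobase of exon, with the combined exon length of each gene in GENCODE, which may exceed that of the transcript used. In reporter-null cells the order was Il17a (1210 ± 140 CPM per kilobase, SD, n = 3), Il17f (904 ± 82.9), Tmem176b (170 ± 15.1), Il22 (84.8 ± 56.9), Tmem176a (69.2 ± 8.93), Il23r (56.5 ± 20.7), Il17re (9.20 ± 2.66) and Il17rc (2.75 ± 2.90). Il17a lay above Il17f in all 3 libraries on this scale, although Il17f has the higher CPM. The ranges of Il22, Tmem176a and Il23r overlapped, so these neighbours did not differ beyond their spread. In Treg cells the order was Tmem176b (41.4 ± 2.82 CPM per kilobase, SD, n = 2), Il17a (20.8 ± 14.4), Tmem176a (16.2 ± 2.23), Il23r (14.8 ± 2.998), Il17f (4.99 ± 3.24), Il22 (2.74 ± 3.25), Il17re (1.52 ± 0.0153) and Il17rc (1.11 ± 0.535). There Il17a, Tmem176a and Il23r overlapped, as did Il17f with Il22 and Il22 with Il17re and Il17rc.

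The genes most like each member were those with the smallest root mean square difference between log2 CPM profiles over the 5 libraries, each profile centred on its own mean. This difference was 0.223 between Il17a and Tmeff2, 0.393 between Il17f and Glp1r, 0.127 between Il23r and C030034L19Rik, and 0.133 between Il17re and Lrrn2. For Il22 it was smallest with its copy Iltifb (0.190), and for Il17rc with Hacd1 (0.131). Some of these matches rest on few counts. Treg counts were 1 and 0 for Glp1r, 5 and 19 for Tmeff2 and 0 and 12 for Iltifb, and Hacd1 had 5 to 51 counts a library. At such counts the prior count of 2 narrows differences in log2 CPM. In the fit the log2 fold change was 9.10 for Glp1r and 7.51 for Il17f. Tmem176b lay nearest to Fyco1 (0.0825) and Tmem176a to Zfp704 (0.0893), nearer than the Tmem176 genes to each other (0.191). No 2 other members were as close as that pair.

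Il17a and Il17f, Il17re and Il17rc, and Tmem176a and Tmem176b are neighbours in the RefSeq annotation. Of the 20 other genes nearest to a member, the 2 nearest on each side, 13 were tested, 2 were higher and 2 lower. Il12rb2, beside Il23r, rose by 2.20 (SE 0.243, adjusted p = 0.00374), and Ifng, near Il22, by 1.40 (SE 0.219, adjusted p = 0.0117). Gimap3 fell by 0.996 (SE 0.135, adjusted p = 0.00667) and Gimap5 fell by 0.92 (SE 0.145, adjusted p = 0.0113) near the Tmem176 genes, in a family of similar genes whose reads may be split. Mcm3, a replication gene beside Il17f, stood at 68.8 ± 19.01 and 103 ± 13.3 CPM (adjusted p = 0.135). The calls of Il12rb2 without Treg replicate 2 (adjusted p = 0.0509), of Gimap3 without Treg replicate 1 (0.0802) or 2 (0.0601) and of Gimap5 without Treg replicate 1 (0.120), Treg replicate 2 (0.0571) or reporter-null replicate 1 (0.0644) were lost.

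Other ligands and receptors of the IL-17 family did not pass the test. Of 7 such genes 3 were tested and 0 were called, with a median log2 fold change of 0.97, and the ligand genes Il17b and Il25 had no count in any library. Il17ra, the common receptor chain, averaged 128 ± 19.4 CPM in the Treg libraries against 160.0 ± 29.2 CPM in the others (log2 0.32, SE 0.187, adjusted p = 0.378). Il17rb, a receptor chain for IL-25, stood at 10.0 and 14.1 CPM in Treg and at 126, 43.6 and 182.5 CPM in reporter-null cells. Its groups did not overlap, and its log2 fold change of 3.28 (SE 0.771, adjusted p = 0.0973) became 3.66 (adjusted p = 1.12e-05) without reporter-null replicate 2, the lowest of its group.

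Of 15 genes of IL-17 receptor signalling, 2 were higher, 1 lower and 12 not called, with a median of 0.10. Nfkb1, an NF-kappaB subunit, rose by 0.74 (SE 0.107, adjusted p = 0.00818) and Cebpd, a transcription factor induced by IL-17, by 1.33 (SE 0.274, adjusted p = 0.031). Its relative Cebpb fell by 1.21 (SE 0.198, adjusted p = 0.0141). Each of these calls was lost without Treg replicate 1, Treg replicate 2 or reporter-null replicate 1, where the adjusted p ran from 0.0543 (Nfkb1 without reporter-null replicate 1) to 0.184 (Cebpd without Treg replicate 2). Traf3ip2, which encodes the adaptor Act1 bound by IL-17 receptors, stood at 70.1 ± 4.10 and 67.7 ± 3.02 CPM (adjusted p = 0.852).

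In the IL-23 pathway 1 of 6 tested genes was higher and 0 lower, with a median of 0.35. The higher gene was again Il12rb2, a chain of the IL-12 receptor and not of the IL-23 receptor. It stood at 29.2 and 21.9 CPM in Treg and 92.3, 113.5 and 146.6 CPM in reporter-null cells. Il12rb1, the chain that pairs with both Il23r and Il12rb2, had a fold change of 0.40 on the log2 scale (SE 0.139, adjusted p = 0.144, which was 0.0424 without reporter-null replicate 3). Stat3, the transcription factor downstream of IL-23, had a fold change of -0.12 on the log2 scale (SE 0.161, adjusted p = 0.734). This fold change was 0.0228 when Treg replicate 2 was left out.

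Of 8 genes of the IL-22 pathway, 1 was higher and 2 lower, with a median of -0.41. That median rests in part on genes with few counts. Il22ra1 (-1.59, SE 1.33) had 3 to 50 counts a library and Il22ra2 (-1.13, SE 1.26) had 0 to 16, and neither was called. Ahr, the aryl hydrocarbon receptor that drives Il22 transcription, rose by 1.09 (SE 0.138, adjusted p = 0.00508). Socs3, a feedback inhibitor of STAT3 signalling, fell by 1.32 (SE 0.120, adjusted p = 0.00152), and Il10rb, a receptor chain shared by IL-10 and IL-22, fell by 0.61 (SE 0.132, adjusted p = 0.0359). The Ahr call was lost without Treg replicate 1 (adjusted p = 0.0734). The Il10rb call was lost without any 1 library other than reporter-null replicate 2 (adjusted p from 0.0735 without reporter-null replicate 3 to 0.252 without Treg replicate 1).

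Among 13 transcriptional regulators of the type 17 programme, 3 were higher and 0 lower, with a median of 0.49. They were Ahr, Runx1, a partner of T cell lineage factors (0.65, SE 0.113, adjusted p = 0.0166), and Bhlhe40, a regulator of cytokine output (1.502, SE 0.302, adjusted p = 0.033). Runx1 lost its call without Treg replicate 1 (adjusted p = 0.165), Treg replicate 2 (0.107) or reporter-null replicate 1 (0.0779), and Bhlhe40 without the same libraries (0.232, 0.187 and 0.104). Maf, which drives Il10 transcription, had a fold change of 0.49 on the log2 scale (SE 0.238, adjusted p = 0.301, which was 0.0404 without reporter-null replicate 2).

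Among receptors for the cytokines that induce type 17 cells, those for IL-6 fell and the TGF-beta receptor chain Tgfbr2 rose. Of 8 genes 1 was higher and 3 lower, with a median of -0.94. Il6st, which encodes the signal chain gp130, fell by 2.09 (SE 0.146, adjusted p = 0.000706) and Il6ra, its IL-6 binding partner, fell by 1.30 (SE 0.139, adjusted p = 0.00277). Tgfbr2 rose by 1.27 (SE 0.134, adjusted p = 0.00268). Tgfbr1, the other chain of that receptor, stood lower in all reporter-null libraries, at 48.9 and 85.8 CPM against 31.5, 28.9 and 37.4 CPM, and did not pass the test (-1.05, SE 0.248, adjusted p = 0.0553). It passed without Treg replicate 1 (adjusted p = 0.0306) or reporter-null replicate 2 (0.0336). Icos, a costimulatory receptor, fell by 0.92 (SE 0.178, adjusted p = 0.0244), a call lost without every library but reporter-null replicate 2 (adjusted p from 0.0630 without reporter-null replicate 3 to 0.198 without Treg replicate 1). Il1r1, the IL-1 receptor, had a fold change of 0.77 on the log2 scale (SE 0.250, adjusted p = 0.126, which was 0.0447 without Treg replicate 2).

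**Figure D4:**
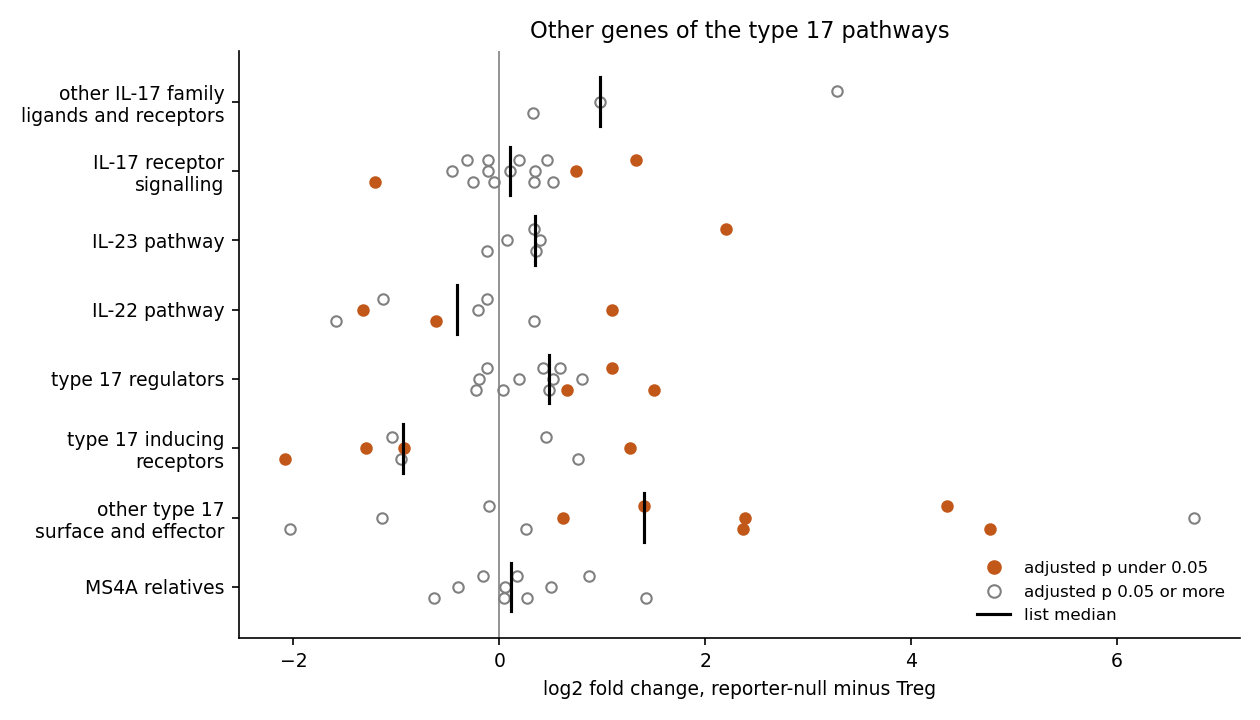
Log2 fold change, reporter-null minus Treg, of each tested gene of 8 pathway lists outside the 8 members (filled where the adjusted p is under 0.05), with the median of each list as a black line. The medians run from -0.94 for the inducing receptors to 1.40 for the other surface and effector genes.

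Other surface and effector genes of type 17 cells rose in 6 of 11 tested cases and fell in 0, with a median of 1.40. Ccl20, a chemokine for CCR6-bearing cells, stood at 31.7 and 117 CPM in Treg and at 2117, 1494 and 2470 CPM in reporter-null cells, and rose by 4.76 (SE 0.759, adjusted p = 0.0344). Ccr6, the gene of its receptor, rose by 0.62 (SE 0.120, adjusted p = 0.0248). Il21, a cytokine of helper T cells, rose by 4.35 (SE 0.470, adjusted p = 0.00796), Cxcr6, a chemokine receptor of tissue T cells, by 2.39 (SE 0.144, adjusted p = 0.000485), Furin, a protease, by 2.37 (SE 0.306, adjusted p = 0.00772), and Ifng as above.

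Cxcr6 and Ifng kept their call with each library left out. Ccl20 lost its call without any 1 of the reporter-null libraries (adjusted p from 0.106 to 0.138), and its log2 fold change was 4.11 when Treg replicate 1 was left out and 6.005 when Treg replicate 2 was. Ccr6 lost it without Treg replicate 1 (adjusted p = 0.176), Treg replicate 2 (0.142) or reporter-null replicate 1 (0.122), Il21 without Treg replicate 1 (0.0646) or 2 (0.051), and Furin without Treg replicate 1 (0.0593). Csf2, which encodes the cytokine GM-CSF, had 0.326 and 0.231 CPM in Treg and 34.2, 4.18 and 52.7 CPM in reporter-null cells. Its groups did not overlap, and its log2 fold change of 6.75 (SE 1.62, adjusted p = 0.107) was 7.26 (adjusted p = 3.52e-07) without reporter-null replicate 2 and 6.08 without replicate 3. Il10, the anti-inflammatory cytokine, averaged 922 ± 8.72 CPM in the Treg libraries against 418 ± 166 CPM in the others (adjusted p = 0.146, and 0.00215 without reporter-null replicate 2).

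Of 16 epithelial genes that IL-17 and IL-22 induce 8 were tested, 0 were higher and 1 lower, and their sum ran from 8.56 to 419.5 CPM, highest in reporter-null replicate 2. The lower gene was Saa3, a serum amyloid (8.42 ± 5.76 against 1.35 ± 0.646 CPM, adjusted p = 0.0465), whose call was lost without every library but reporter-null replicate 2 (adjusted p from 0.0726 to 0.386). Its log2 fold change was -2.64, and -1.68 without Treg replicate 1. Of 10 tested MS4A relatives of the Tmem176 proteins 0 were called, with a median of 0.11. Ms4a4b stood at 302 ± 57.5 and 314 ± 41.0 CPM and Ms4a6b at 376 ± 8.37 and 338 ± 59.6 CPM.

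Markers of other cells that make these cytokines were read in the same libraries. Of 9 gamma-delta T cell markers 4 had a value, of which 2 were higher and 0 lower. The sum of these 4 was 13.4 and 14.4 CPM in Treg and 632, 647 and 430.1 CPM in reporter-null cells. Most of it was 5830411N06Rik, a scavenger receptor gene, at 7.17 and 6.89 against 551, 585 and 381 CPM (6.17, SE 0.262, adjusted p = 0.00014). Blk, a kinase of B cells and gamma-delta T cells, stood at 2.01 and 3.75 against 54.3, 36.8 and 40.8 CPM (3.92, SE 0.343, adjusted p = 0.00152). Cd163l1, a further scavenger receptor, was not called (adjusted p = 0.0525, and 0.0057 without reporter-null replicate 3). Sox13, a transcription factor of such cells, was at 1.79 and 0.139 CPM in Treg and at 0.0542, 3.94 and 0.178 CPM in reporter-null cells, with overlap. T cell receptor constant genes were not analysed here, and the part of gamma-delta cells in the rise of Il17a, Il17f, Il23r and Il17re was not tested.

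Of 11 markers of group 3 innate lymphoid cells 2 were higher and 3 lower, with sums of 1675 to 1863 CPM. Ncr1, a receptor gene of NK cells and a subset of these cells, was near 1 CPM in both groups (1.10 ± 0.334 and 0.883 ± 0.367 CPM). Cxcr5, a chemokine receptor, fell by 4.12 (SE 0.351, adjusted p = 0.00297), Nrp1, a coreceptor that Treg cells also use, fell by 3.06 (SE 0.316, adjusted p = 0.00504), and Il2ra, the IL-2 receptor chain abundant in Treg cells, fell by 0.88 (SE 0.122, adjusted p = 0.00711). The Il2ra call was lost without Treg replicate 1 (adjusted p = 0.0685) or 2 (0.0784). Kit, a growth factor receptor, rose by 1.88 (SE 0.409, adjusted p = 0.044) and Id2, a transcription factor used by innate lymphoid and T cells, by 0.90 (SE 0.144, adjusted p = 0.0126). The Kit and Id2 calls were lost without Treg replicate 1, Treg replicate 2 or reporter-null replicate 1, where the adjusted p ran from 0.0592 to 0.310. The part of innate lymphoid cells in the rise of the cytokine genes was not tested. B and plasma cell markers summed to 1409 and 419 CPM in Treg and to 382, 854 and 434 CPM in reporter-null cells, with 0 higher and 1 lower of 6. The epithelial markers had 0 calls among 11 tested, and their sum had 1 high library in each group. Epcam differed, at 45.0 and 34.3 CPM in Treg and at 1.08, 118 and 0.890 CPM in reporter-null cells. The part of epithelial RNA in the levels of the members was not tested. Without Treg replicate 1 the called members had log2 fold changes of 5.29 (Il17a), 8.39 (Il17f), 2.61 (Il17re), 1.96 (Tmem176a), 2.11 (Tmem176b) and 1.74 (Il23r). Without reporter-null replicate 2 they were 5.95, 7.49, 2.55, 2.16, 1.98 and 2.09 in the same order. Neither fit tests the part of epithelial RNA.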

How the data were processed

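RNA-seq counts of 2 Treg and 3 reporter-null libraries were used. Per the labels' protocols, RNA from cells in TRIzol was amplified with SMART-Seq v4 (12 cycles), made into libraries with KAPA Hyper Prep (8 PCR cycles) and sequenced on an Illumina HiSeq with paired 50-base reads. The authors deposited whole-number counts per gene symbol, not normalized, and the submitters' processing notes name DESeq with no version. The sources used here do not name the aligner, build, annotation or strand setting. Amplified reads carry no molecular identifiers, so counts are reads, not molecules.

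Of 24421 rows, 4 named NA (at most 0.00492% of a library) were left out. R 4.3.3 and edgeR 4.0.16 were used with TMM factors, filterByExpr (minimum count 10, minimum total 15; 14164 genes kept), the robust quasi-likelihood F test and Benjamini-Hochberg adjustment over all tested genes at 0.05. The fit called 577 genes higher and 668 lower, and 3199 had an unadjusted p under 0.05. The SE is the log2 fold change divided by the square root of F. Log2 CPM used a prior count of 2. The steps were tested on simulated counts. Replicates were compared by chi-square per degree of freedom (16.9 to 73.8), and none were duplicates.

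The members and lists were chosen with earlier results of these data known. Of the regulator list, 1 gene is not reported here. The rule for named genes took Foxp3, Thy1, the 8 members, up to 4 genes of smallest p per list and others needed for a count, the 2 nearest genes on either side and the 3 most like profiles. Of the last 2 kinds the text names the called neighbours, Mcm3, Iltifb and the most like profile. Xcr1, Cd68, Itgax, Epcam, Tgfbr1, Il22ra1 and Il22ra2 were named after their values were seen. Alternatives were other scalings, DESeq2 1.42.0, limma-voom (limma 3.58.1), other filters and thresholds, fits without robust estimation, blocks on replicate numbers and each library left out.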

Additional observations from a re-analysis of the deposited data

How the results depend on the processing

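For each member 16 alternatives were tried, of which 2 were chosen after seeing the data. These were the fit without both libraries numbered 2 in their descriptions and the fit with Il22 and Iltifb counts summed. The summed fit leaves the counts of the other members unchanged. Il17a, Il17f, Tmem176a and Tmem176b were called higher in 15, Il17re in 13, Il23r in 12, Il22 in 4 and Il17rc in 0. The exception for the first 4 was a replicate block on the numbers in the titles, which left 24 genes and 0 members called with log2 fold changes of 5.98 (Il17a), 7.72 (Il17f), 1.61 (Il23r), 2.81 (Il17re), 2.12 (Tmem176a) and 2.11 (Tmem176b). Same-numbered libraries deviated from their group means in opposite directions there (correlations -0.511 and -0.602). With 2 Treg libraries these deviations mirror each other, so a correlation with 1 of them is minus that with the other. The -0.602 here and the 0.602 that follows are therefore 1 value, not separate evidence. The deviations of the reporter-null libraries cancel out as well, so the -0.511 here and the 0.481 that follows are tied to that value. A replicate block on the numbers in the descriptions, where the 2 pairs correlated at 0.602 and 0.481, called 1399 genes and 7 members, with Il22 at 5.25. No label says that either number marks a shared animal or day, and with 2 pairs this was not settled. In either block 1 reporter-null library has no Treg partner and adds nothing to the group contrast. Little is then left to estimate the spread, so the number of calls under a block does not tell which numbering marks pairs. Treg replicate 1 and reporter-null replicate 2, which had the most epithelial signal, are both numbered 2 in their descriptions.

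All genes called numbered 1245, 489 at an adjusted p under 0.01, 2323 with DESeq2, 341 to 2035 with 1 library left out (4 to 6 members called), and 2152 (7 members) with both libraries numbered 2 in their descriptions left out, a choice made after seeing the data. Il22 passed the test in that last fit (4.46), with DESeq2 (4.95) and without robust estimation (4.92). With 1 library left out the log2 fold change ran from 1.596 to 2.17 for Il23r, 2.41 to 2.81 for Il17re, -0.0445 to 1.91 for Il17rc and -0.25 to 0.0228 for Stat3. The difference in the log2 ratio of Il17f to Il17a ran from 0.13 to 3.08. The cause was not tested. A fit with 1 Treg library assumes that it varies like the other group. Il22 rests on 9 and 121 counts in Treg, and Il17rc on 42 to 339 counts a library.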
